A study of Rattus norvegicus with 4 samples.

Results

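The comparison set 1 array of the cochlear lateral wall of rats given 3-nitropropionic acid (3-NP) against 1 array of the same tissue after saline, both taken 1 day after treatment. The members are all genes that the day 1 array design covers with a non-control probe set carrying exactly 1 gene symbol. These are 10411 genes, read by 12783 of 15866 probe sets outside the controls, out of 13810 genes on both designs of the study. Each gene is described by its signal in either array and by the log2 ratio of 3-NP over saline relative to the median measured gene, here called the relative log2 ratio. There was 1 array a side, so no value has a replicate error, no test was made, and every difference below is one between these 2 arrays.

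Both groups were female Sprague-Dawley rats of 180 to 210 g, aged 8 to 10 weeks. Per the labels, the left middle ear was opened under anaesthesia, and 3-NP at 300 mM in saline, or saline alone, was infused into the round window niche and held there with a piece of gelatin. In both groups the other cochlea, on the right, had been destroyed by surgery. The label texts locate the tissue in the upper basal turn in one field and in the second turn without the stria vascularis in another. Day 1 and day 3 were read on different array designs, and whether both designs received the same RNA cannot be told from the files. The labels used here do not say how many animals gave RNA to an array, and the 300 mM dose is the lower of both that the protocol names. The series title speaks of 3-NP damage and the labels of an acute mitochondrial dysfunction model, so the question is which genes differ in the lateral wall early after that insult.

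3-NP is an irreversible inhibitor of succinate dehydrogenase, the enzyme that forms complex II of the respiratory chain and also runs a step of the citric acid cycle. The lateral wall of the cochlea holds the spiral ligament, whose fibrocytes take up potassium and pass it through gap junctions to the stria vascularis, which secretes it into the endolymph. Both tissues depend on mitochondrial ATP to run the sodium pump.

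A gene counted as measured when its signal reached the array's own median in at least 1 of both arrays, and signals under the array's 30th percentile (17.1 in saline, 22 in 3-NP) were raised to that floor. Of the 10411 genes, 6533 were measured, 5585 of them past that filter in both arrays, 448 in saline only and 500 in 3-NP only. Genes of the last 2 kinds passed through the array where they were bright, which favours a difference in that direction. The median signal was 44.9 in saline and 60.7 in 3-NP, and the median measured gene had a log2 ratio of 0.44, which is subtracted throughout. The 3' over 5' ratio of the beta-actin controls was 2.69 in saline and 2.53 in 3-NP, and that of the GAPDH controls 1.34 and 1.46. The 9 measured reference genes had relative log2 ratios from -0.49 (Tbp) to 0.98 (B2m, itself interferon-induced). All 6 genes of the lateral wall panel that this design covers (Gjb2, Gjb6, Slc12a2, Atp1b1, Car3 and Pou3f4) were measured, with saline signals from 139.7 for Pou3f4 to 4109 for Slc12a2. Their relative log2 ratios were all negative. They were -2.57 for Car3, -2.48 for Gjb6, -1.12 for Pou3f4, -1.01 for Slc12a2, -0.995 for Gjb2 and -0.57 for Atp1b1.

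Relative to the median gene, 507 of the 6533 measured genes (7.76%) were at least 2-fold higher in the 3-NP array and 423 (6.47%) at least 2-fold lower. With the signals taken as deposited the counts were 1169 (17.9%) and 171 (2.62%), so the share of higher genes among those 2-fold apart was 54.5% after centring and 87.2% as deposited. Interferon-induced, antigen presentation and chemokine genes made up 50 of the 507 and none of the 423, and they are left aside in what follows. Of the remaining higher genes, 92 were at least 4-fold higher and 24 at least 8-fold; of the lower genes, 48 and 5 were. The higher genes were dim in saline, with a median signal of 48.3 against 202 in 3-NP, whereas the lower genes were brighter in saline (165) and dimmer in 3-NP (80.2).

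**Figure D1:**
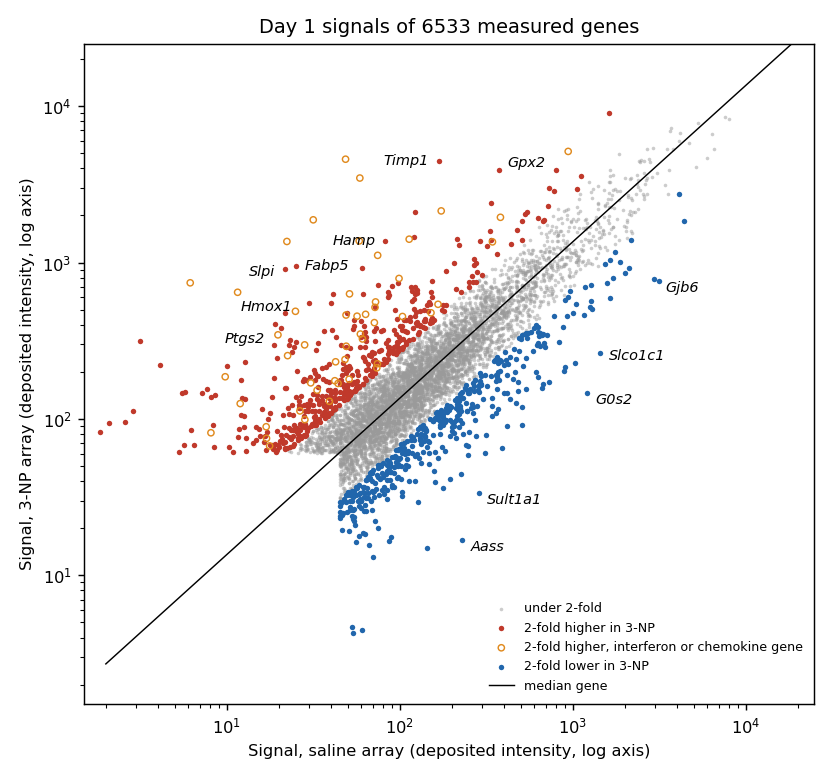
Signal of each measured gene in the saline array (x axis) and the 3-NP array (y axis), both as deposited on log axes. Red points are 2-fold higher relative to the median gene (black line), open orange points the interferon and chemokine genes among them, and blue points 2-fold lower; the red points reach down to low saline signals and the blue points extend over bright genes such as Gjb6 at 3139 in saline.

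Genes with several probe sets give the only internal check of a ratio. In 744 genes, at least 2 probe sets were kept. The difference between their brightest 2 in relative log2 ratio gave an SD of 0.352 for a single probe set. Among the 92 of these genes that were 2-fold apart by their brighter probe set, the next one lay on the same side in 87. It was also 2-fold apart in 70. The 5 exceptions, Klhl8, Tns1, Paxbp1, Sin3b and Tsr2, were named after their values were seen. This spread lies between probe sets read on the same 2 arrays. It covers no difference between hybridisations, animals or dissections.

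**Figure D2:**
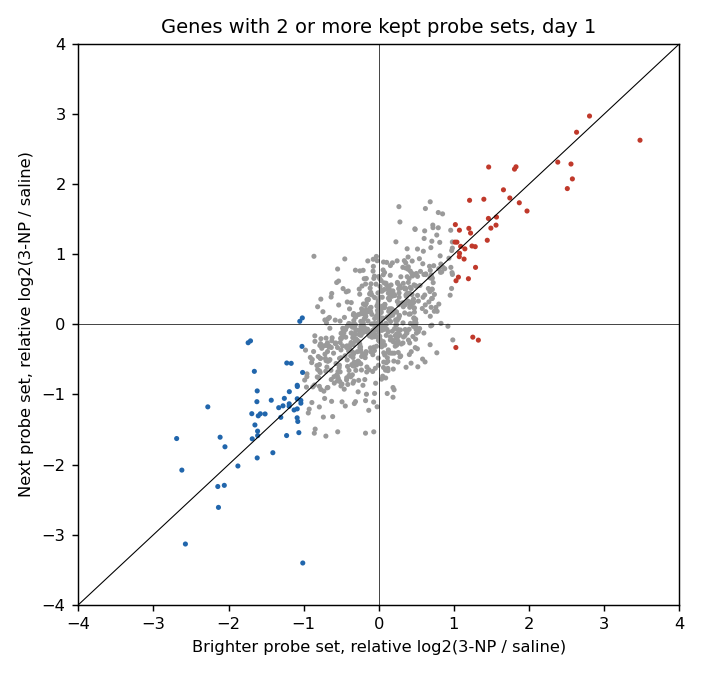
Relative log2 ratio by the brighter (x axis) and the next brighter (y axis) probe set of the 744 genes with at least 2 kept probe sets; the diagonal marks equal values. Points in red or blue are 2-fold higher or lower by the brighter probe set, and 87 of these 92 lie on the same side of 0 by the other.

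Early response genes stood higher in the 3-NP array as a list. Immediate early genes encode transcription factors and regulators that cells transcribe within minutes of a stimulus without new protein synthesis. Of 27 such genes on the design, 19 were measured, 13 past the filter in both arrays and 6 in 3-NP only. Of the 19, 14 were 2-fold higher and none lower, and the median relative log2 ratio was 1.91, against 0 over all measured genes. With the filter required in both arrays, 8 were higher, none lower and the median was 1.46. Without a filter the median was 1.34. Fos, a subunit of the AP-1 transcription factor, had a signal of 41.1 after saline and 629 after 3-NP (relative log2 ratio 3.50). Its partner Junb went from 46.1 in the saline array to 299 in the other, and Fosl1, another AP-1 subunit, from 17.9 to 109.9. Ier3, Ier2 and Ier5, named as immediate early response genes, read 337, 32.5 and 72.6 in saline and 2390.4, 198 and 384 in 3-NP. The zinc finger factor Egr1 had 123 after saline and 697 after 3-NP, and the orphan nuclear receptor Nr4a2 had 18.2 after saline and 137 after 3-NP. The smallest of these relative differences was the 3.9-fold one of Ier5, and none of the 19 genes lay under the median gene.

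Genes that restrain signalling were more often higher than lower. The list of feedback inhibitors of growth factor and cytokine signalling had 11 of 28 measured genes higher, 1 lower and a median of 0.78. Of the 28, 18 passed the filter in both arrays and 9 in 3-NP only. With the filter required in both arrays, 5 were higher, none lower and the median was 0.64. Rgs16, which shortens G-protein signals, had 20.6 after saline and 384 after 3-NP, a relative log2 ratio of 3.78. Socs3, the inducible brake on JAK-STAT signalling, read 4.09 in saline, under the floor, and 220.5 in 3-NP, and was therefore at least 9.53-fold higher. The dual-specificity phosphatase gene Dusp5 likewise had a saline signal under the floor (16) and 115 in 3-NP, at least 4.98-fold higher. Dusp1, a phosphatase of MAP kinases, had 151 after saline and 648 after 3-NP, and its further probe set gave 1.92 beside 1.66. Nfkbia, the inhibitor of NF-kappaB that NF-kappaB itself induces, had 289.9 after saline and 1383 after 3-NP, and the tyrosine phosphatase gene Ptpn1 had 21.7 after saline and 158 after 3-NP. The single lower gene was Rgs5, a pericyte-associated regulator of G-protein signalling, at -1.14.

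Further inducible transcription factor genes were higher in 11 of 36 measured cases and lower in 1, Klf15 at -1.07. Of the 36, 28 passed the filter in both arrays and 8 in 3-NP only. With the filter required in both arrays, 7 were higher and 1 lower. Cebpb, a factor of the acute phase response, read 12.8 in saline, under the floor, and 231 in 3-NP, at least 10-fold higher. Its relative Cebpd had 75.4 after saline and 714 after 3-NP, with probe sets at 2.81 and 2.97. Stat3, which carries interleukin 6 family signals, had 59.4 after saline and 420.2 after 3-NP, with 2.38 and 2.31 by its probe sets. Runx1 was at 1.77, Sox4 at 1.41, Nfkb2 at 1.35 and Id1 at 1.20, and Id4 at 1.29 by 1 probe set and 0.81 by another.

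The CArG box, to which serum response factor binds, and the cyclic AMP response element TGACGTCA are elements that immediate early promoters are known to carry. Promoter stretches were read from RefSeq's 250 bases upstream of the transcription start in the GRCr8 assembly, for measured genes with exactly 1 such entry. In the immediate early list, 4 of 14 such promoters held a CArG box (Egr1, Egr2, Srf and Zfp36), against 1.39% of 5193 promoters of measured genes. The cyclic AMP response element stood in 1 of the same 14 (Ier2), against 2.93%. The stretches shown come from 2-fold higher genes. These are Egr2, Zfp36 and Ier2 of the immediate early list, Dusp5 and Dusp1 of the feedback inhibitors and Ppp1r15a of the integrated stress response. Capitals mark 1 match to the motif, the gene's strand is given, and 25 bases are shown on either side where the window allows. The Dusp5 window holds a further CArG box directly after the marked one, left in lower case.
Egr2 (chr20:21054490-21054549, minus strand, CArG box): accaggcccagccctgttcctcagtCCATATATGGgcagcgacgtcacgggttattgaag
Zfp36 (chr1:92799109-92799165, minus strand, CArG box): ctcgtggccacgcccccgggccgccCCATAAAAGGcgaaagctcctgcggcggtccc
Dusp5 (chr1:262543667-262543726, plus strand, CArG box): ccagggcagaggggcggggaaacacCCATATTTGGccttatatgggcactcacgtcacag
Ier2 (chr19:40399282-40399339, plus strand, cyclic AMP response element): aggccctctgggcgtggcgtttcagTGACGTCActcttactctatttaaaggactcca
Dusp1 (chr10:17184704-17184761, plus strand, cyclic AMP response element): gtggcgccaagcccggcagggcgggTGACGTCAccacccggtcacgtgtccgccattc
Ppp1r15a (chr1:105139630-105139687, minus strand, cyclic AMP response element): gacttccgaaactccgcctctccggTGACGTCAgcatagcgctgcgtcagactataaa
The relative log2 ratios of these genes were 1.53 for Egr2, 1.58 for Zfp36, 2.16 for Ier2, 1.66 for Dusp1 and 1.83 for Ppp1r15a, and Dusp5 had the bound given above. A match to letters is a description of the window and says nothing about binding in this tissue.

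The inducible Hsp70 and some small heat shock proteins were higher, while 36 of 41 measured chaperone genes stood within 2-fold of the median gene. Heat shock proteins hold or refold damaged proteins, and the inducible ones are transcribed when unfolded proteins release heat shock factor. Of 50 genes on the design, 41 were measured, 5 were 2-fold higher and none lower, and the median was 0.38. Hspa1a, the stress-inducible Hsp70, had 49.7 after saline and 472 after 3-NP (2.81). Hspb1 (Hsp27) had 214 after saline and 1420.3 after 3-NP (2.29), Hspb8 had 148 after saline and 563 after 3-NP (1.49, and 1.37 by a further probe set), and Cryab, the lens and muscle small heat shock protein, had 513 after saline and 1855 after 3-NP (1.42). Hspa2, an Hsp70 known from testis, was at 1.29. The small heat shock genes Hspb6 and Hspb7 stood at -0.40 and -0.81, under 2-fold. As deposited, 14 of the 41 were 2-fold higher. Chaperones of the endoplasmic reticulum differed from this: of 43 measured genes for folding and secretion none was 2-fold higher or lower, and all lay between -0.73 and 0.87.

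The heat shock element was searched as GAANNTTC, which reads the same on both strands. It occurred in 10 of 35 promoters of the heat shock list, against 4.53% of promoters of measured genes, and in 3.94% of those of the higher genes outside the set-aside list. The 4 windows below show it in members of the list above the median gene, at different relative log2 ratios. Hspb6, which also held the element, stood below the median gene, as given above. The Hspb1 window holds a further match, left in lower case.
Hspb1 (chr12:26432398-26432455, minus strand, relative log2 ratio 2.29): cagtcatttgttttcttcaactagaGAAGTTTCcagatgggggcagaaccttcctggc
Hspb8 (chr12:45837260-45837307, plus strand, 1.49): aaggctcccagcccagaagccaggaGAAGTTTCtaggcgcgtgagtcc
Hsph1 (chr12:10427312-10427367, plus strand, 0.93): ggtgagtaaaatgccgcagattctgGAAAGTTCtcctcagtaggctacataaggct
Bag3 (chr1:192533303-192533360, plus strand, 0.77): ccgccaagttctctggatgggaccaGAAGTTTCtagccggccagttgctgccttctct
Hspb1, Hspb8 and Bag3 share the letters GAAGTTTC in this element. Hsph1, a co-chaperone of Hsp70, and Bag3, which links Hsp70 to autophagy, stayed under 2-fold.

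Of the antioxidant genes, more were higher than lower. Nrf2 is the transcription factor that induces enzymes against oxidants and electrophiles. Of 30 measured genes among its targets and the superoxide dismutases (34 on the design), 22 passed the filter in both arrays, 5 in 3-NP only and 3 in saline only. Of the 30, 10 were higher and 1 lower, and the median was 0.05, close to that of all genes. With the filter required in both arrays, 5 were higher, none lower and the median was -0.037. Hmox1, heme oxygenase, had 29.8 after saline and 551 after 3-NP (3.77). The quinone reductase gene Nqo1 had 39.9 after saline and 553 after 3-NP (3.35), and the mitochondrial superoxide dismutase gene Sod2 had 120.4 after saline and 1454 after 3-NP (3.16). Srxn1, which restores oxidised peroxiredoxins, had 22.1 after saline and 157 after 3-NP, and the thioredoxin reductase gene Txnrd1 had 93.6 after saline and 498 after 3-NP (1.97 and 1.62 by its probe sets). The aldose reductases Akr1b8 and Akr1b1 were at 2.48 and 1.32. The aldehyde reductase gene Akr7a3 was the lower one, with 84.6 after saline and 35 after 3-NP.

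Within glutathione metabolism, the genes that make glutathione were higher and 7 transferase genes were lower. Gclc and Gclm, the subunits of the rate-limiting ligase, had 126 after saline and 415 after 3-NP and 36.6 after saline and 110.2 after 3-NP, and Gss, the synthase, had 39.4 after saline and 126 after 3-NP; the relative log2 ratios were 1.28, 1.15 and 1.24. The peroxidase gene Gpx2 had 374 after saline and 3911 after 3-NP (2.95), and the glutaredoxin gene Glrx was at 1.09. The transferase genes Gstm1 (148 after saline and 60.1 after 3-NP), Gstm2, Gstm5, Gstm7, Gstk1, Gsta1 and Gstt3 lay between -1.73 and -1.35, and the plasma peroxidase gene Gpx3 was at -1.05. In all, 5 of 26 measured genes were higher and 8 lower (without centring, 8 and 5), and the median was 0.11. Members of the Gstm family are near-identical in sequence, so probe sets may read more than 1 of them.

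Iron and metal genes included some of the highest values. Lcn2, a siderophore-binding acute phase protein, had 122 after saline and 2093 after 3-NP (3.66), and Hamp, which encodes the iron hormone hepcidin, had 82.4 after saline and 1373 after 3-NP (3.62). The metallothionein gene Mt2A had 1624 after saline and 9070.3 after 3-NP, and the zinc and iron importer gene Slc39a14 had 78.1 after saline and 366 after 3-NP. Hpx, the heme scavenger hemopexin, read 2.08 in saline, under the floor, and 93.7 in 3-NP, at least 4.05-fold higher. The lower members were Hfe, a regulator of hepcidin, at -1.29 and Mt3, with 511 after saline and 345 after 3-NP. Of 21 measured genes of this list, which holds Hmox1 too, 6 were higher and 2 lower, and the median was 0.19.

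AP-1 sites were searched as TGANTCA on both strands, and antioxidant response elements as TGACNNNGC; a run TGACTCAGC satisfies both. An AP-1 site was found upstream of 31 of 355 higher genes outside the set-aside list (8.73%), 18 of 324 lower genes (5.56%) and 4.33% of all measured genes. Examples from the higher genes are given here.
Hamp (chr1:95300347-95300403, minus strand, AP-1 site): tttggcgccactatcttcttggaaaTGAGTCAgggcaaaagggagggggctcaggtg
Emp1 (chr4:169943993-169944049, plus strand, AP-1 site): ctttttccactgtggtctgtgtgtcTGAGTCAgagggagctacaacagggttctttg
Srxn1 (chr3:161064725-161064781, plus strand, AP-1 site): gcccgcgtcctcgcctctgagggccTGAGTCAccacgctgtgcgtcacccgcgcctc
The sites lie 107, 212 and 62 bases upstream of the start of Hamp, Emp1 and Srxn1, which had relative log2 ratios of 3.62, 3.48 and 2.39. Emp1, an epithelial membrane protein, had 60.8 after saline and 919 after 3-NP, and 2.63 by a further probe set. The cyclic AMP response element stood upstream of 4.23% of higher, 0.617% of lower and 2.93% of all measured genes, and the TATA box, searched as TATAAA, upstream of 11.5%, 8.02% and 6.16%. For the antioxidant response element the shares were 14.9%, 10.2% and 13%, and for the NF-kappaB site 10.4%, 12% and 8.78%. Promoters with a start site placed elsewhere than in this tissue would be missed, and no test was made.

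**Figure D3:**
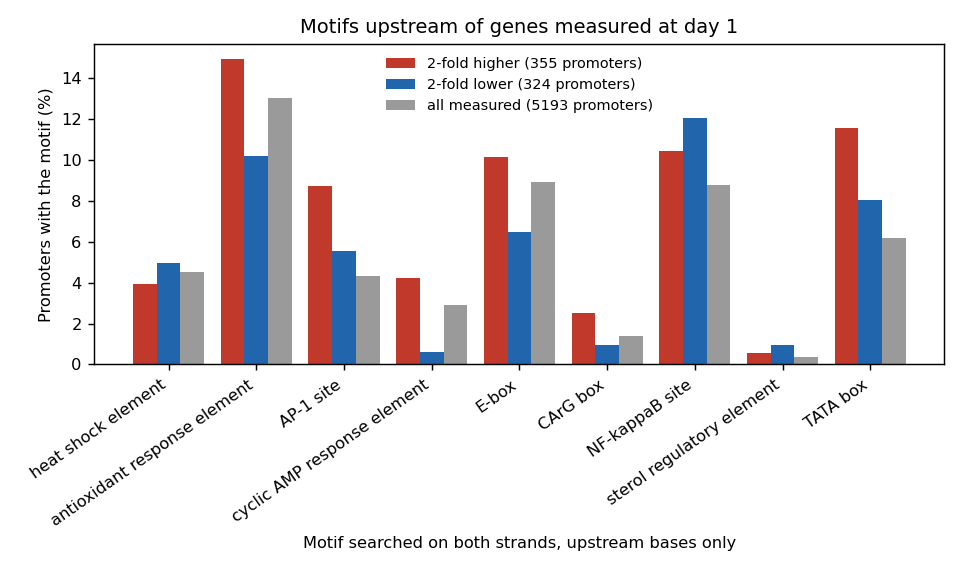
Percentage of promoters (250 bases upstream of the RefSeq start) that hold each motif, for genes 2-fold higher outside the interferon and chemokine list (red), 2-fold lower (blue) and all measured genes (grey). The red bar for the AP-1 site stands at 8.73% beside a grey bar of 4.33%, and the red and blue bars for the heat shock element stand close to the grey one.

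Genes of the integrated stress response, in which kinases slow translation and the factor ATF4 is made, were split. Of 26 measured genes (28 on the design), 19 passed the filter in both arrays, 5 in 3-NP only and 2 in saline only. Of the 26, 8 were higher and 3 lower, and the median was 0.66. Among the 8, Eif2ak2 is interferon-induced and belongs to the set-aside list. With the filter required in both arrays, 3 were higher and 2 lower, and the median was 0.49. Atf4 itself had 731 after saline and 3009 after 3-NP (1.60), and Gdf15, a stress-induced secreted factor, had 23.2 after saline and 318 after 3-NP (3.34). Atf3 read 12.6 in saline, under the floor, and 105 in 3-NP, at least 4.54-fold higher. Ppp1r15a, which restarts translation, had 121 after saline and 581 after 3-NP, and Trib3, an inhibitor of ATF4, had 29.1 after saline and 83.8 after 3-NP. The lower members were enzymes of serine synthesis, Phgdh with 479.9 after saline and 171 after 3-NP (-1.93) and Psat1 with 373 after saline and 176 after 3-NP (-1.52), and Sesn1 at -1.13. Shmt2, the mitochondrial enzyme that takes the next step from serine into folate metabolism, was higher at 1.67, while Aldh1l1 of the cytosolic folate cycle was at -1.64.

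Genes for making ribosomes were higher as a list, and those for the finished ribosome less so. Ribosome biogenesis genes encode nucleolar proteins that process ribosomal RNA and assemble subunits. Of 36 on the design, 33 were measured, 23 past the filter in both arrays and 10 in 3-NP only. Of the 33, 14 were higher and none lower (24 and none as deposited), 32 lay above the median gene and the list median was 0.94. With the filter required in both arrays, 9 were higher, none lower and the median was again 0.94. Fbl, the fibrillarin methyltransferase, had 61.9 after saline and 356 after 3-NP (2.09). Nop56, its partner in box C/D particles, had 123 after saline and 486 after 3-NP, and Mybbp1a had 99.9 after saline and 393 after 3-NP. The RNA helicase gene Ddx21 read 15.3 in saline, under the floor, and 86.6 in 3-NP, at least 3.74-fold higher. For proteins of the cytosolic ribosome the median was 0.41: none of 41 was 2-fold apart, against 10 higher as deposited, and 40 lay above the median gene.

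Other genes of protein synthesis leaned the same way. Of 53 measured translation factor genes, 8 were higher and 1 lower, and the median was 0.42; 1 of the 8 is again Eif2ak2. Eif5a, whose protein carries hypusine, had 321 after saline and 1283 after 3-NP (1.56), the helicase gene Eif4a1 had 268 after saline and 1056 after 3-NP (1.54), and Eif6 was at 1.21. Eef2k, the kinase that slows elongation, was the lower one, with 62.5 after saline and 36.6 after 3-NP (-1.21). Srm and Odc1, enzymes of the polyamines from which hypusine is made, had 38.9 after saline and 171 after 3-NP and 785 after saline and 2873 after 3-NP (1.70 and 1.43), but the later enzyme Sms was at -1.07 and Amd1 at -1.09. Aminoacyl-tRNA synthetase genes had a median of 0.54, with Wars1 (1.17) and Yars1 (1.06) 2-fold higher of 24. The 30 constitutive proteasome genes had a median of 0.43 and lay between -0.15 and 0.84, none 2-fold apart.

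The E-box CACGTG, a site for MYC and related factors, was present in 5 of 30 promoters of the ribosome biogenesis list and in 8.92% of those of measured genes. Its windows in 3 of the higher members are shown.
Mybbp1a (chr10:57555277-57555332, plus strand): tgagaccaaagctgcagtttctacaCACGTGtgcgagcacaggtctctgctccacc
Gnl3 (chr16:6219783-6219832, minus strand): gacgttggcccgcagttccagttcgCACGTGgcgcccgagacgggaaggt
Pes1 (chr14:83074271-83074326, plus strand): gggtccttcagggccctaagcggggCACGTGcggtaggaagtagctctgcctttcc
These genes had relative log2 ratios of 1.54 (Mybbp1a), 1.24 (Gnl3) and 1.04 (Pes1). Myc read 11.8 in saline, under the floor, and 86.8 in 3-NP, at least 3.75-fold higher. Among all higher genes outside the set-aside list the E-box share was 10.1%, and among lower genes 6.48%.

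**Figure D4:**
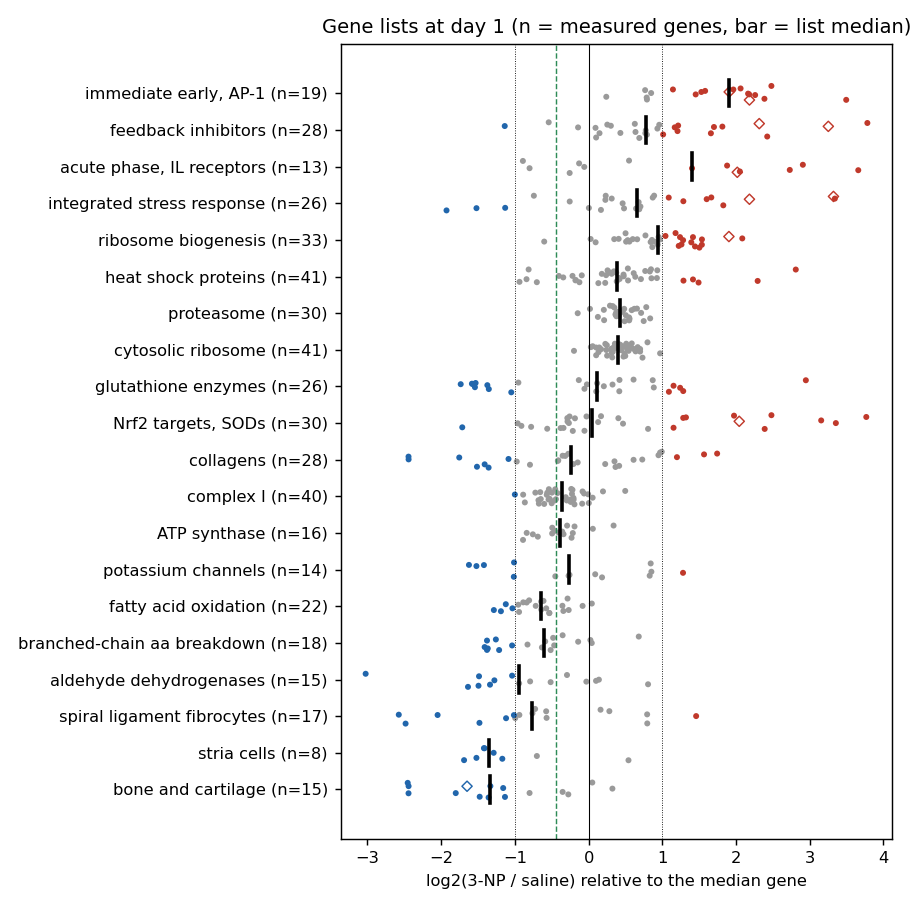
Relative log2 ratio of each measured gene in 20 lists (points; red 2-fold higher, blue 2-fold lower, open diamonds bounds with 1 signal at the floor), with the list median as a black bar. Dotted lines mark 2-fold, and the green dashed line marks where a ratio of 0 as deposited falls; the medians run from 1.91 for immediate early genes to -1.35 for stria cells.

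Secreted protease inhibitors held 2 of the 3 highest ratios outside the set-aside list. Slpi, an inhibitor of neutrophil elastase, had 21.7 after saline and 915 after 3-NP (4.96), and Timp1, an inhibitor of metalloproteinases, had 168 after saline and 4455 after 3-NP (4.29). Wfdc18, a related small protein, read 3.14 in saline, under the floor, and 317 in 3-NP, at least 13.7-fold higher. The stromelysin gene Mmp3 (5.53, under the floor, and 147) was at least 6.36-fold higher, and the urokinase gene Plau (12, under the floor, and 107) at least 4.61-fold. Plat, the tissue plasminogen activator, had 186 after saline and 883 after 3-NP, and Adamts1 had 22.6 after saline and 118 after 3-NP. The proprotein convertase gene Pcsk6 and Mmp11 were lower, at -1.78 and -1.65. The list of 31 measured genes had 7 higher and 3 lower and a median of -0.014, which turned to 0.43 as deposited and 0.003 after lowess.

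Clotting and acute phase genes were also among the higher ones. The tissue factor gene F3, which starts coagulation, had 63.3 after saline and 357 after 3-NP (2.06), and the C1 inhibitor gene Serping1 and the antichymotrypsin-like Serpina3n were at 1.81 and 1.88. F13a1, the clot-stabilising transglutaminase, was lower, with 196 after saline and 41.2 after 3-NP (-2.69, and -1.63 by a further probe set). Of the cytokine receptor genes, Tnfrsf12a had 61.5 after saline and 626 after 3-NP (2.91) and Tnfrsf1a, the main TNF receptor, had 117 after saline and 660.2 after 3-NP (2.05). Il18bp, a decoy for interleukin 18, had 33.8 after saline and 304 after 3-NP, and the granulocyte growth factor gene Csf3 read 7.69 in saline, under the floor, and 157, at least 6.77-fold higher. In the acute phase and interleukin receptor list, 36 genes were on the design but 13 measured. Of these, 7 were higher and none lower, and the median was 1.40. In both arrays 10 passed the filter, and 3 passed it in 3-NP only. With the filter required in both arrays, 4 were higher and the median was 0.25. Without a filter 8 were higher and the median was 0.28.

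Growth factor genes differed in both directions. Stc1, a secreted glycoprotein hormone, had 30.4 after saline and 186 after 3-NP (2.17), Kdr, a VEGF receptor, had 51.4 after saline and 213 after 3-NP (1.61), and Ngfr read 14.7 in saline, under the floor, and 88.8 in 3-NP. Lower were Egf (-1.24), Fgf9 (-1.08) and Fgfr2 (-1.09, and -0.87 by a further probe set). In the TGF-beta and BMP pathway, 7 of 30 measured genes were higher and none lower, with a median of 0.10; the corepressor gene Tgif1 had 43.1 after saline and 333 after 3-NP (2.51) and the signal transducer gene Smad3 had 33.2 after saline and 135 after 3-NP (1.58). Igfbp4, Igfbp5 and Igfbp3, binding proteins of insulin-like growth factors, were at 1.30, 1.07 and 1.04. The secreted Wnt antagonist gene Sfrp4 had 53.7 after saline and 378 after 3-NP (2.38).

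Lipid genes showed both ends of the range. Fabp5, a fatty acid carrier, had 25.1 after saline and 944 after 3-NP (4.80), and the lipid droplet coat gene Plin2 had 92.9 after saline and 371 after 3-NP (1.56, and 1.42 by a further probe set). G0s2, which inhibits the lipase that opens those droplets, had 1206 after saline and 147 after 3-NP (-3.48). The lipoprotein lipase gene Lpl was at -1.36, while Angptl4, an inhibitor of that lipase, was at 1.43. The desaturase gene Scd was at -1.27. Ptgs2, the inducible cyclooxygenase of prostaglandin synthesis, had 19 after saline and 405 after 3-NP (3.98), and Ptges, the synthase for prostaglandin E2, read 8.07 in saline, under the floor, and 138 in 3-NP, at least 5.97-fold higher. The prostaglandin-inactivating Ptgr1 was at -1.54. Sphk1, which makes sphingosine 1-phosphate, had 24 after saline and 266 after 3-NP (3.04), and Lcat, which esterifies cholesterol on lipoproteins, had 664 after saline and 157 after 3-NP (-2.52).

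Genes that break down fatty acids, amino acids and aldehydes lay mostly below the median gene. In 5 lists pooled (mitochondrial fatty acid oxidation, peroxisome, branched-chain amino acid and propionate breakdown, other amino acid breakdown, and aldehyde and alcohol dehydrogenases) there were 86 measured genes, of which 25 were 2-fold lower, 0 higher and 71 below the median gene. Their median was -0.63, and -0.19 as deposited, where 10 were lower and 5 higher. The union of these lists was made after their medians were seen. Each list had members past the filter in saline only and none in 3-NP only, which favours lower values. With the filter required in both arrays, lower genes numbered 4 in place of 7 in branched-chain breakdown (median -0.49, from -0.61). Other amino acid breakdown had 3 in place of 6 (-0.27, from -0.44) and the dehydrogenases 5 in place of 7 (-0.65, from -0.94). Fatty acid oxidation had 3 in place of 4 and peroxisome 2 in place of 3.

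In fatty acid oxidation, Etfdh, which passes electrons from acyl-CoA dehydrogenases to ubiquinone, had 108 after saline and 59.9 after 3-NP (-1.28). Acaa2, Eci1 and Hadh, enzymes of the spiral itself, were at -1.19, -1.12 and -1.03, and 21 of 22 measured genes lay below the median gene. Branched-chain breakdown had 7 of 18 measured genes lower: both subunits of methylcrotonyl-CoA carboxylase, Mccc1 (118 after saline and 60.1 after 3-NP) and Mccc2 (171 after saline and 89.1 after 3-NP), Pcca of propionyl-CoA carboxylase (182 after saline and 95 after 3-NP), Bckdha of the branched-chain dehydrogenase, Acadsb, Mcee and Aldh6a1. Their relative log2 ratios ran from -1.41 to -1.04, and as deposited none was 2-fold lower. In the lysine path, Aass had 229 in saline and 16.9 in 3-NP, under the floor, at least 14.1-fold lower, and Aldh7a1 had 712 after saline and 345 after 3-NP (-1.49). Prodh, the mitochondrial proline dehydrogenase, had 166 after saline and 56.5 after 3-NP (-2.00), Cbs, the entry into transsulfuration, had 344 after saline and 121 after 3-NP (-1.95), and Csad, which makes hypotaurine, had 538 after saline and 155 after 3-NP (-2.24). The carnosinase gene Cndp1 had 88.9 and, under the floor, 17.5, at least 5.49-fold lower.

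Detoxifying enzymes had some of the lowest values. Sult1a1, a phenol sulfotransferase, had 286 after saline and 33.6 after 3-NP (-3.53), the lowest ratio of any gene whose signals both exceeded the floor. Aldh3a1, which clears aromatic and lipid aldehydes, had 391 after saline and 65.1 after 3-NP (-3.02). Aldh2, the mitochondrial acetaldehyde dehydrogenase, had 370.4 after saline and 199 after 3-NP, Aldh1a1, which forms retinoic acid, had 335 after saline and 187 after 3-NP, and Adh1c was at -1.49. In that family 7 of 15 measured genes were lower and none higher, and 4 were lower as deposited. Against this direction, the cytochrome P450 genes Cyp1b1 and Cyp3a9 had 86.5 after saline and 619.5 after 3-NP and 48.9 after saline and 289 after 3-NP (2.40 and 2.12), and Por, their electron donor, was at 1.08 and 1.01 by its probe sets.

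Respiratory chain genes were nearly all within 2-fold of the median gene. Of 40 measured complex I genes, 36 lay below the median gene and 1, Ndufab1 (968 after saline and 656 after 3-NP), was 2-fold lower, while the list median was -0.37, but 0.073 in the values as deposited. The medians were -0.30 for complexes III and IV, -0.38 for ATP synthase and -0.31 for the citric acid cycle, and all 3 turned above 0 as deposited (0.14, 0.055 and 0.13). Pdk2, a kinase that shuts pyruvate dehydrogenase, had 199 after saline and 88.4 after 3-NP (-1.61, and -1.52 by a further probe set), and Pdp1, the phosphatase that reopens it, had 55.7 after saline and 155 after 3-NP (1.04). Cox7a1, the muscle-type subunit of complex IV, was at -1.28. Mitochondrial ribosomal protein genes had a median of -0.082 over 69 measured genes (0.36 as deposited).

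Ion transport genes of the lateral wall included lower and higher ones. Gjb6, the connexin 30 of fibrocyte and stria gap junctions, had 3139 after saline and 761 after 3-NP (-2.48). Among potassium channel genes, 73 were on the design, 14 were measured, 5 were lower and 1 higher, with a median of -0.26 (0.17 as deposited). Kcne1 and Kcnq1, the subunits of the channel that secretes potassium into the endolymph, had 1006 after saline and 475 after 3-NP and 157 after saline and 79.3 after 3-NP (-1.52 and -1.42). Kcnj16, an inward rectifier, had 875 after saline and 385 after 3-NP (-1.62, and -1.10 by a further probe set). Kcne3 was the higher one, at 1.28.

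The carbonic anhydrase genes Car14, Car3 and Car2 were lower, and bicarbonate carriers stood on both sides. Car14, Car3 and Car2 had 1027 after saline and 226 after 3-NP, 889 after saline and 202 after 3-NP and 611 after saline and 200.3 after 3-NP, with relative log2 ratios of -2.62, -2.57 and -2.05 and further probe sets at -2.08, -3.13 and -1.75. The sodium-driven bicarbonate transporter gene Slc4a10 had 418 after saline and 89.6 after 3-NP (-2.66), and Slc26a4, which encodes pendrin, was at -1.48. Slc4a4 and Slc4a7, sodium bicarbonate cotransporters, were higher at 1.25 and 1.22, and so was the water channel gene Aqp1, with 144 after saline and 538 after 3-NP (1.46, and 1.51 by a further probe set). In the list of cation-chloride, sodium-proton and bicarbonate transporters 3 of 13 measured genes were higher and 3 lower, with a median of 0.28. Of 43 measured calcium, sodium and chloride channels and pumps 4 were higher and 5 lower, with a median of -0.045 (0.39 as deposited). The epithelial sodium channel subunits Scnn1b and Scnn1g were at 1.36 and 1.39, the sodium leak channel Nalcn had 225 after saline and 44.7 after 3-NP (-2.77), and the calcium release channel Itpr1 had 449 after saline and 179.9 after 3-NP (-1.76).

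Of 113 measured solute carrier genes, 12 were higher and 11 lower (without centring, 26 and 8), and the median was 0.03 against 0 for all genes. Slc1a5, a glutamine transporter, had 22.8 after saline and 295 after 3-NP (3.25), and Slc1a1, a glutamate transporter, read 12.2 in saline, under the floor, and 136 in 3-NP, at least 5.89-fold higher. The glycine transporter gene Slc6a9 had 46.8 after saline and 208 after 3-NP, and the vesicular glutamate transporter genes Slc17a6 and Slc17a7 had 33.7 after saline and 187 after 3-NP and 40 after saline and 147 after 3-NP. At the other end, Slco1c1 and Slco1a4, which carry thyroid hormone and organic anions, had 1438 after saline and 266 after 3-NP and 838 after saline and 309 after 3-NP (-2.88 and -1.88). The magnesium transporter gene Slc41a3 was at -2.34, the inositol transporter gene Slc2a13 at -2.28 and Slc16a6 at -2.11. The lactate carrier gene Slc16a1 was higher, with 58 after saline and 164 after 3-NP (1.06).

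Genes whose mutations cause hearing loss were lower in 14 of 39 measured cases and higher in 1, and their median was -0.43, but 0.0079 in the values as deposited. Of the 39, 15 also stood in the lists of fibrocytes, stria, bone and cartilage or organ of Corti. The remaining 24 had 1 lower and 1 higher and a median of -0.16. Beside Gjb6, Kcne1, Kcnq1 and Slc26a4, the lower genes included Lrp2, the endocytic receptor megalin (688 after saline and 289 after 3-NP), Myo6, an actin motor (266 after saline and 118 after 3-NP), and the collagen genes Col9a2, Col11a2 and Col4a5.

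Of the collagen list, collagens of cartilage were among the lower genes, and basement membrane collagens were found on both sides. Col9a2 and Col11a2, fibril components of cartilage, had 673 after saline and 168 after 3-NP and 315 after saline and 78.6 after 3-NP, both at -2.44. Col1a2 had 622 after saline and 295 after 3-NP (-1.51, and -1.28 by a further probe set), Col9a1 was at -1.36 and Col5a2 at -1.09. The basement membrane chains went apart, with Col4a5 at -1.75 and Col4a1 and Col18a1 at 1.20 and 1.57. Lox, which cross-links collagen, had 96.6 after saline and 439 after 3-NP (1.74, and 1.80 by a further probe set). In all 7 of 28 measured genes were lower and 3 higher (without centring, 4 and 8), and the median was -0.24 (0.20 without centring). Among proteoglycans and elastic matrix genes, Omd and Ogn had 159 after saline and 39.4 after 3-NP and 434 after saline and 134 after 3-NP (-2.45 and -2.13), while Mgp, an inhibitor of calcification, had 799.9 after saline and 3896 after 3-NP (1.84).

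Cytoskeletal genes that were higher included Gfap, an intermediate filament of glia, with 18.7 after saline and 298 after 3-NP (3.55), and Tubb6, a tubulin, with 19.5 after saline and 245 after 3-NP (3.21). The keratin genes Krt8 and Krt19 had 278 after saline and 993 after 3-NP and 721 after saline and 2306 after 3-NP (1.40 and 1.24), and the neuronal filament and tubulin genes Prph and Tubb3 were at 1.54 and 1.34. Of 16 measured intermediate filament genes, 4 were higher and none lower, with a median of 0.55. Of 47 measured actin and contractile genes, 4 were higher, led by the profilin gene Pfn1 at 1.21, and 3 lower. These counts lie near the shares over all measured genes, 7.76% higher and 6.47% lower. Myl9, a myosin light chain of smooth muscle, had 132 after saline and 52.3 after 3-NP (-1.78), Actn1 was at -1.09, and the 2 probe sets of Cald1 gave -1.01 (brighter) and -3.40. Among junction genes, Icam1, Cldn4 and Gja4 were higher, at 2.36, 2.24 and 2.14, and Alcam was at -1.58.

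Growth arrest and death genes were higher in 12 of 32 measured cases and lower in 3, with a median of 0.37. Cdkn1a, the p21 inhibitor of cyclin-dependent kinases, had 118 after saline and 566 after 3-NP (1.83), whereas Cdkn1c, the p57 inhibitor, had 1998 after saline and 856 after 3-NP (-1.66). Gadd45b, a stress sensor, had 54.3 after saline and 429 after 3-NP (2.55). Ripk3, the kinase that starts necroptosis, read 10 in saline, under the floor, and 217 in 3-NP, at least 9.4-fold higher, and Birc3, an inhibitor of apoptosis, had 25.1 after saline and 138 after 3-NP. Tnfrsf11b, the decoy receptor osteoprotegerin, was lower with 1713 after saline and 791 after 3-NP (-1.55). Replication and repair genes had 7 of 36 measured genes higher and none lower, among them Pcna (1.01), Ung (1.72) and Apex1 (1.32). Of 35 mitosis genes 9 were measured; Cks2 was at least 6.19-fold higher (8.57, under the floor, and 143), while Spc24 had 178 after saline and 36.2 after 3-NP (-2.73) and Tacc3 was at least 8.92-fold lower (145, and 15 under the floor).

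Clock and hormone-responsive genes gave further large values. Hlf, a clock output factor, had 511 after saline and 119 after 3-NP (-2.54), and Per2, a core repressor of the clock, had 195 after saline and 77.4 after 3-NP (-1.77), while Bhlhe40, another repressor, had 32.2 after saline and 178 after 3-NP (2.03). The sources used here do not give the time of day at which tissue was taken. Of 20 measured glucocorticoid targets, 5 were higher and 4 lower. Hsd11b1, which regenerates active glucocorticoid, had 1649 after saline and 592 after 3-NP (-1.92), and the mineralocorticoid receptor gene Nr3c2 was at -1.52. Crabp2, a retinoic acid carrier, had 126 after saline and 635 after 3-NP (1.89).

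Some of the most different genes stood in no list. Higher were Csrnp1, an inducible nuclear protein (25.1 after saline and 310.1 after 3-NP, 3.19), Pvr, a cell surface ligand of immune receptors (36.5 after saline and 367 after 3-NP, 2.89), Upp1, uridine phosphorylase (18.8 after saline and 181 after 3-NP, 2.83), and the complement protease gene C1s (24.6 after saline and 289 after 3-NP, 3.11). Ifgga2l1 (21.6 after saline and 476 after 3-NP, 4.02), an interferon-inducible GTPase by name, was not caught by the patterns of the set-aside list. Lower were Fam111a (509.7 after saline and 91.2 after 3-NP), Apbb1ip, which links Rap1 to integrins (311 after saline and 60.7 after 3-NP), Mapk4, an atypical MAP kinase (906 after saline and 216 after 3-NP), and Ppp1r1a, an inhibitor of protein phosphatase 1 (2937 after saline and 790.5 after 3-NP). Their relative log2 ratios were -2.92, -2.80, -2.51 and -2.33. Mro, Arxes1, Tril and Hpse, the heparan sulfate cleaving heparanase, lay between -2.55 (Tril) and -2.33 (Hpse). With 3-NP signals under the floor, Prrt4, the pacemaker channel gene Hcn2 and the nucleotide sugar receptor gene P2ry14 were at least 5.35-fold, 4.6-fold and 4.31-fold lower.

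**Figure D5:**
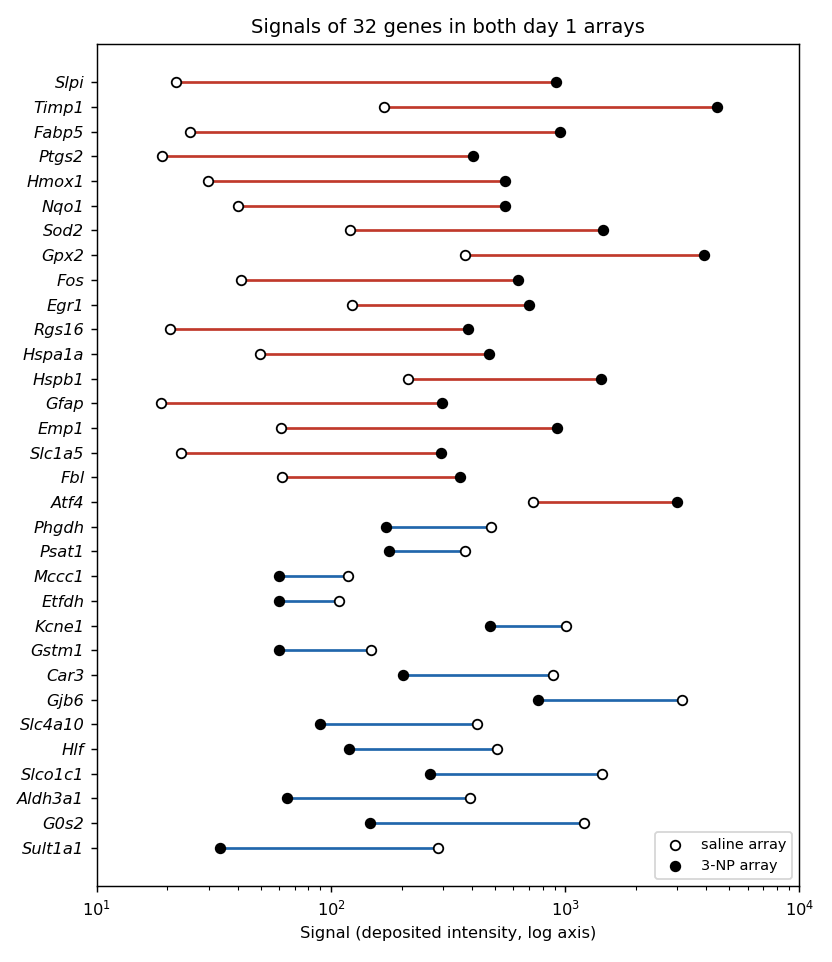
Signals of 32 genes in the saline array (open circles) and the 3-NP array (filled circles), as deposited on a log axis. Red lines join genes with a positive and blue lines genes with a negative relative log2 ratio; signals run from 18.7 (Gfap, saline) to 4455 (Timp1, 3-NP).

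Markers of the cells that the dissection could hold differed too. Summed signals are given as deposited, without the centring of 0.44 that the medians carry. Spiral ligament fibrocyte markers had 17 of 18 measured, 6 lower and 1 higher, a median of -0.76 and a summed signal of 22736 in saline and 17729 in 3-NP. For stria cells, 8 of 11 were measured, 6 were lower and none higher, the median was -1.35, and the summed signal was 4604 and 4752. Bone and cartilage markers had 15 of 21 measured, 10 lower and none higher, a median of -1.33 and sums of 9955 and 6597. Of the 15, 10 passed the filter in both arrays and 5 in saline only. With the filter required in both arrays, 5 were lower and the median was -0.97. After that centring all 3 sums, that of stria cells included, would be lower in 3-NP. In bulk tissue, fewer cells of a type and less RNA per cell cannot be told apart, and the part of tissue composition in the lower channel, collagen and metabolic genes was not tested.

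Of the blood-borne cell types, macrophages and monocytes had most of their markers measured, and neutrophils and lymphocytes few. Macrophage and monocyte markers had 12 of 20 measured, 2 higher (Lgals3 with 97.9 after saline and 736 after 3-NP and Cd14 with 44.9 after saline and 177 after 3-NP) and none lower, 10 above the median gene, a median of 0.28 and sums of 2015 and 3899.7. Of 7 neutrophil markers 3 were measured, with Lcn2 alone 2-fold higher, and of 16 lymphocyte markers 1 was. Endothelial markers had 13 of 20 measured, 5 higher and 1 lower, and a median of 0.58; pericyte and smooth muscle markers had 6 of 16 measured, 2 lower, Myl9 and Rgs5, and none higher. Neuron and Schwann cell markers had 17 of 19 measured, 3 higher and 1 lower, Sncg with 2114 after saline and 921 after 3-NP (-1.64), and none of 6 measured skeletal muscle markers was 2-fold apart. Their part in the differences between the arrays was not tested.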

How the data were processed

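Biotin-labelled cRNA from 6 µg of total RNA was hybridised to Affymetrix arrays, per the labels. The deposited values are linear signal intensities per probe set, which the authors made with the MAS5 algorithm, as the submitters' processing notes say. The sources used here give no scaling target or detection calls. The day 1 table held 15923 probe sets, of which 57 were controls, 312 had several gene symbols and 2771 none. Symbols are those of the platform annotation, brought up to date against RefSeq genes of GRCr8 (10378 of 10411 genes matched). No build of the array design was used.

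From these intensities, values under the 30th percentile of their array were raised to it, probe sets reaching the 50th percentile of either array were kept, and the brightest by mean log2 signal stood for its gene. The log2 ratio was centred on the median measured gene; 1 or more in size counted as 2-fold, and where the floor replaced 1 signal the fold is a bound ("at least"). Calculations used Python 3.11.15, pandas 2.3.3, numpy 2.4.6 and statsmodels 0.14.6, and were tested on simulated data. The 72 function lists, 13 cell type lists, motifs and members were chosen with earlier results of these data known, so list counts and medians are descriptions. Named were the 25 highest and 25 lowest genes outside the set-aside list, the 6 largest bounds per direction, up to 5 genes per list and direction at least 2-fold apart (otherwise the gene furthest from 0), reference genes, a lateral wall panel and their further probe sets. Named beside these, after their values were seen, are Hsph1, Bag3, Gnl3, Pes1, Srf and Zfp36 for their promoters, Klhl8, Tns1, Paxbp1, Sin3b and Tsr2 as disagreeing probe sets, Hspb6 and Hspb7 as family members, and further list members: Adamts1, Akr1b1, Aldh6a1, Atf4, Birc3, Col5a2, Col9a1, Egr1, Eif2ak2, Fosl1, Gpx3, Gstm7, Gstt3, Id1, Id4, Ier2, Ier5, Mcee, Nfkb2, Pcna, Trib3 and Txnrd1. In total 9 alternatives were tried. The number of arrays, 1 per group, limits the precision.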

Additional observations from a re-analysis of the deposited data

Results flagged for a closer look

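Probe sets without a gene symbol entered none of the comparisons, yet some differed as much as named genes. Of 1244 kept probe sets with no single symbol, 81 were 2-fold higher in the 3-NP array and 113 were 2-fold lower. Above the floor in both arrays, the highest of those with no symbol were 1377092_at, reading 39.7 after saline and 656 after 3-NP (relative log2 ratio 3.61), and 1373035_at, with 50.7 and 441 (2.68). The lowest were 1390092_at, with 172 in saline and 38.8 in 3-NP (-2.59), and 1371922_at, with 1033 and 241 (-2.54). Their genes are unnamed here.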

How the results depend on the processing

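The count of higher genes was 507 and that of lower genes 423. Taken as deposited they were 1169 and 171, and with probe sets required to reach the 50th percentile in both arrays they were 269 and 247, from 5588 genes in place of 6533. Under centring on the 100 probe sets shared by both designs, lowess, quantile normalization, floors at the 20th or 40th percentile, no filter and the mean over probe sets, the counts stayed between 456 and 568 higher and between 385 and 468 lower. Of 306 named genes 2-fold apart, none changed direction under any of these 9 alternatives; 254 stayed 2-fold apart as deposited, 289 with the floor at the 40th percentile and 299 to 306 under the other 6 that gave all of them a value, while the filter in both arrays kept 174, of which 172 stayed. Of 72 function list medians, 22 changed sign as deposited, 12 without a filter, 7 with the filter in both arrays and 0 to 3 under the other 6 settings. The cause was not tested. No paired analysis was possible because each group has 1 array. Signals at or under the floor give bounds only. Of the genes 2-fold apart, 50 higher and 17 lower ones had 1 signal at the floor, and 3878 genes on the design were not measured. Saline signals just above the floor, such as those of Gfap, Ptgs2 and Rgs16, were given plain ratios, although no detection calls were at hand.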

Other observations

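The day 1 and day 3 designs share 100 normalization probe sets, which allow each day 1 array to be set beside the day 3 array of the same treatment. Over these probe sets the log2 signals of the saline arrays of both days had a Pearson correlation of 0.976 and those of the 3-NP arrays 0.979. Within a day, saline and 3-NP correlated at 0.945 on day 1 and 0.957 on day 3. The SD of the log2 difference was 0.26 between the saline arrays and 0.24 between the 3-NP arrays of different days, against 0.40 and 0.35 between treatments on day 1 and day 3. The log2 ratios of 3-NP over saline on both days correlated at 0.687 over the same probe sets. These are descriptions over probe sets that share arrays and hybridisations; day and array design coincide in this series and cannot be told apart, and whether RNA from the same extracts was put on both designs cannot be told from the files, so the likeness across days is no independent support for the day 1 ratios.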
